A study of Mus musculus with 2 samples.

Results

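Marginal zone B cells, the B cells that lie at the border of the splenic white pulp and meet antigens carried by the blood, were taken from 2 libraries in which single splenocytes had been captured in droplets and their transcripts sequenced from the 5′ end. A barcode was a member if it held at least 1000 unique molecular identifiers (UMIs, 1 for each captured transcript) with at most 10% of them mitochondrial, at least 3 UMIs summed over the B cell receptor and B cell surface genes Cd79a, Cd79b and Ms4a1, no UMI of Cd3d, Cd3e or Cd3g, fewer than 3 UMIs of Jchain, no UMI of Fcer2a (CD23, a surface marker of follicular B cells), and at least 2 UMIs summed over 5 gate genes, Myof, S1pr3, Fcrl5, Tm6sf1 and Cd9. This gave 722 members of 28962 barcodes, 356 in ALLO and 366 in SYN. Because the cells were chosen by their UMIs, the levels of these genes, and all differences from other B cells, are descriptions and carry no test. Other B cells were those of the same B cell gate with no UMI of the 5 gate genes, 4637 in ALLO and 4626 in SYN. The Fcer2a rule was not applied to them, and 3440 in ALLO and 3277 in SYN held an Fcer2a UMI.

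The ALLO library was made from spleen of wild-type C57BL/6 grafted at weeks 0 and 5 with tail skin of C57BL/6-Tg(HLAA2.1)1Enge/J donors, transgenic for human HLA-A2.1. In contrast, the SYN library was made from spleen of wild-type C57BL/6 given skin of wild-type C57BL/6 donors in the same way, and donors and recipients of both groups had been anaesthetised with tiletamine, zolazepam and xylazine. Spleens were taken 4 weeks after the week 5 graft, and the splenocytes were frozen, thawed and passed over a column that removes dead cells. The title of the series concerns the Th17 pathway in the development of antibodies to HLA. The sources used here do not state age, sex or how many animals were behind each library. With n = 1 library in each group no difference between ALLO and SYN had a replicate check and no test was possible, so what is compared is 2 libraries, not 2 treatments. Parentheses hold exact 95% intervals for counting error alone, and PCR, capture and animal-to-animal variation lie outside them.

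Marginal zone B cells are known as the fast arm of the antibody response. They carry much complement receptor CD21, the product of Cr2, which binds antigen coated with complement, and much CD1d, which shows lipids to natural killer T cells, and they make IgM early and without lasting help from T cells. Their fate depends on Notch2, a receptor that meets its ligand on stromal cells of the spleen and then switches on target genes such as Dtx1 and Hes1 through the DNA-binding protein RBPJ. Sphingosine-1-phosphate receptors, S1pr1 and S1pr3 among them, hold the cells near the blood sinus, whereas follicular B cells follow Cxcr5 and Ccr7 into the follicle.

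The sequence before the start of Cr2 is shown because this marker, which was not in the gate, was higher in members of both libraries than in other B cells and divided the members among themselves. It is the 250 bases before the RefSeq transcript start on the GRCm38.p6 build, read 5′ to 3′ on the gene's own strand, the minus strand. Capitals mark TGGGAA, the core letters of the motif that RBPJ binds, which was searched with its reverse complement TTCCCA.
Cr2, chr1:195176720-195176969: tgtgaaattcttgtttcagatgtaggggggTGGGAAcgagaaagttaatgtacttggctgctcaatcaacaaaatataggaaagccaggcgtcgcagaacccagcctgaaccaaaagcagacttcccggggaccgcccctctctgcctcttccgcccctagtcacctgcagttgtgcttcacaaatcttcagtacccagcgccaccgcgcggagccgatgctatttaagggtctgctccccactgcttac
The window of Cr2 held 1 match, counted over 250 bases before and 50 after the start. Among other genes described here, the windows of Cd36, Cd9, S1pr3 and Ffar2 also held a match, as did 1 of 2 windows of Plac8, while those of Dtx1, Asb2, Fcrl5 and Myof held 0. Of 32851 promoter windows of that length, 8397 (25.6%) held at least 1, so a match of this short motif is common and is a description of letters only. In GENCODE M21 annotation of the same build, the protein-coding Cr2 (ENSMUSG00000026616) lies on chromosome 1 from 195136811 to 195176716, and the protein-coding Dtx1 (ENSMUSG00000029603) on chromosome 5 from 120680202 to 120711927, both on the minus strand.

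Members made up 5.16% (4.65 to 5.71%) of 6895 ALLO cells in the B cell gate and 5.44% (4.91 to 6.01%) of 6732 SYN cells. The ALLO over SYN ratio of these shares was 0.95 (0.818 to 1.10), an interval that includes equal shares. Against all barcodes that passed the UMI and mitochondrial limits, the shares were 3.64% (3.27 to 4.03%) of 9792 in ALLO and 3.27% (2.95 to 3.61%) of 11198 in SYN, and the ratio turned to 1.11 (0.959 to 1.29), since B cells were 70.4% of kept barcodes in ALLO and 60.1% in SYN. Depth sets part of these shares: members had medians of 5173.5 and 4747.5 UMIs in ALLO and SYN, other B cells 2957 and 2818. With each cell thinned to 1000 UMIs before the gate was read, 105 of 6705 ALLO cells (1.57%) and 113 of 6714 SYN cells (1.68%) passed. Their ratio was 0.93 (0.706 to 1.22). Fcer2a and Cd3 were read on thinned UMIs too, so these cells need not all be members. Summed over members, the depth was 1991690 UMIs in ALLO and 1918656 in SYN. The libraries shared 264 barcodes, none of them in the gate of both. Scrublet, a doublet caller, marked 208 ALLO and 527 SYN barcodes (2.12% and 4.71%), of which 3 and 2 were members, and the members were kept as the rule gives them.

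Among the genes that chose the cells, Tm6sf1 was seen in most members, with a UMI in 74.2% of ALLO and 74.6% of SYN cells. Fcrl5, an Fc receptor-like protein of marginal zone and B-1 cells, was seen in 57.0% and 55.5%, and Myof, the membrane-repair protein myoferlin, in 40.4% and 33.6%. The tetraspanin gene Cd9 was seen in 32.0% and 36.6%, and S1pr3 in 21.9% and 23.5%. In 80 ALLO and 87 SYN members a lone gate gene supplied both or all of the UMIs, 159 and 163 had UMIs of 2 different gate genes, and 7 and 12 had all 5. Cr2, which was fixed as a marker but not used to choose the cells, had a UMI in 78.1% (73.4 to 82.3%) of ALLO and 70.8% (65.8 to 75.4%) of SYN members. After thinning to 1000 UMIs, Cr2 was seen in 48.3% and 39.3% of members and in 20.1% and 20.02% of other B cells. In T cells of the same libraries, which should lack Cr2 and had median depths of 4288 and 4181 UMIs, the share was 0.488% and 0.558%, below the shares in both kinds of B cells. Without thinning, Cr2 was seen in 43.7% and 41.5% of other B cells and in 1.95% and 2.33% of T cells.

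Several genes outside the gate differed with the gate sum, and others did not. Among B cells without Fcer2a, Cr2 stood at 221 CPM (the gene's UMIs for every 1000000 UMIs summed over the cells) in ALLO at a gate sum of 0, at 368 at 1, 589 at 2, 471 at 3 and 790.3 at 4 or more. In SYN the Cr2 levels were 213, 284, 525, 577 and 743 CPM, rising at every step, where ALLO dipped at a sum of 3. The cells just outside the gate, with a sum of 1, thus lay between the cells with none and the members at a sum of 2 in both libraries. Dtx1, the Notch target, stood at 160.0 and 146 CPM at a sum of 1, at 200.5 and 278 at 2 and at 328 and 415 at 4 or more. Ighd, the heavy chain of IgD, went the other way, from 503 and 512 CPM at a sum of 0 to 137 and 159 at 4 or more. Notch2 showed no common course, at 91.7, 89.5, 98.5, 81.7 and 115 CPM over the same steps in ALLO and 114, 109.8, 88.3, 82.4 and 79.4 in SYN. Cxcr5 in ALLO went from 109 to 87.9 at a sum of 2 and 124 at 4 or more. Asb2 in SYN was higher at a sum of 3, at 42.4 CPM, than at 4 or more, at 28.7. A further 531 ALLO and 456 SYN cells of the B cell gate reached a gate sum of 2 but held Fcer2a UMIs, and they were left out by the rule. Their Cr2 level was 502 CPM in ALLO and 491 in SYN and their Ighd level 379 and 399, both between members and other B cells. Deeper cells reach higher gate sums: the median depth in ALLO was 2694 UMIs at a sum of 0 and 5836 at 4 or more.

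**Figure D1:**
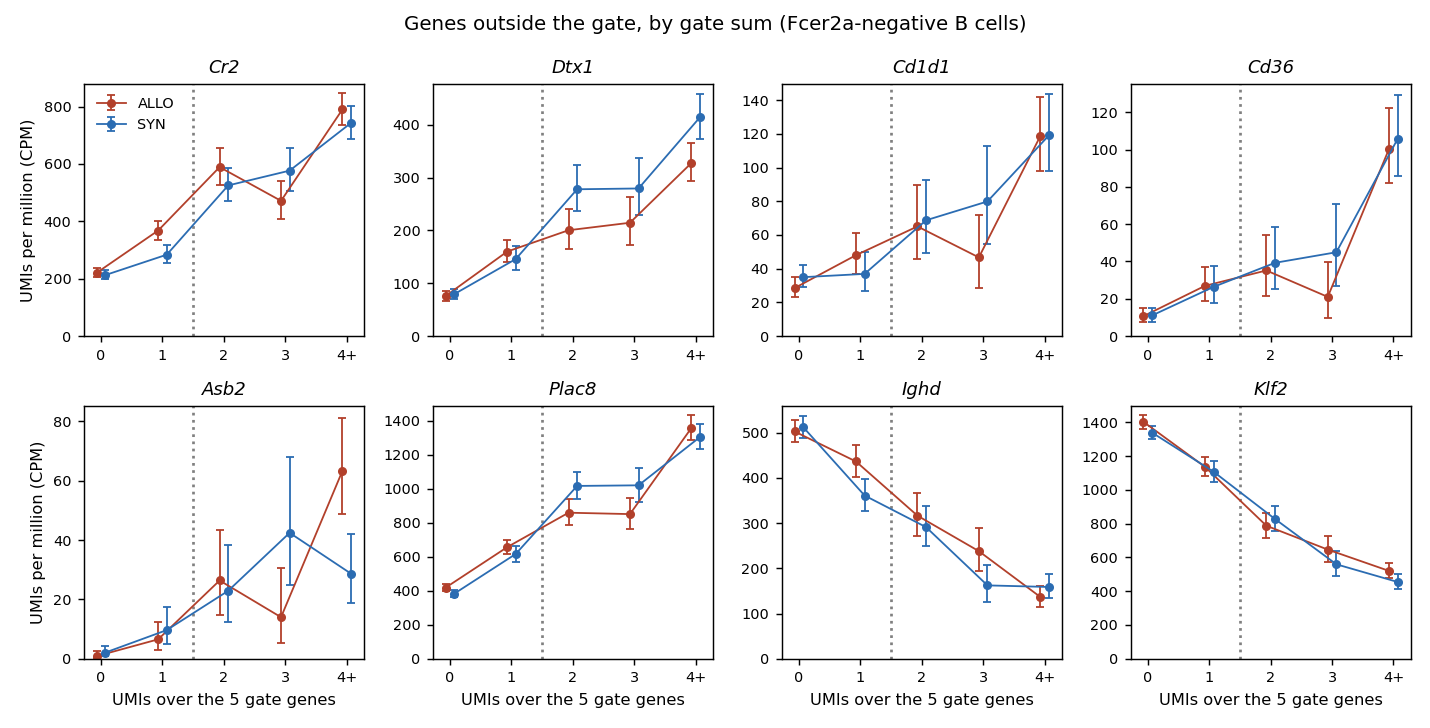
Level in CPM of 8 genes outside the gate in B cells without Fcer2a, by the number of UMIs over the 5 gate genes, in ALLO (red) and SYN (blue), with exact 95% Poisson intervals. The dotted line marks the gate at 2 UMIs. Cr2, Dtx1, Cd1d1, Cd36, Asb2 and Plac8 are higher and Ighd and Klf2 lower at a sum of 4 or more than at 0 in both libraries.

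Against other B cells, members carried more of the marginal zone genes that the gate did not use and less of the follicular ones, with near-equal sizes in ALLO and SYN. Of 10612 genes with at least 50 UMIs over the 4 sums, 724 (6.82%) were at least 1.5-fold higher in members in both libraries and 628 (5.92%) at least 1.5-fold lower. With other B cells limited to those without Fcer2a, the counts were 458 and 437. Gene lists were read at 20 UMIs, where 945 of 11779 genes (8.02%) were higher and 802 (6.81%) lower, and where the median log2 ratio over all genes was -0.02 in ALLO and -0.02 in SYN. Of 13 marginal zone genes, 8 were higher and 0 lower, with medians of 1.12 in ALLO and 1.24 in SYN. Of 13 follicular genes, 0 were higher and 11 lower, with medians of -1.35 and -1.26. As cells were gated on expression, and the lists were drawn up with these cell types in mind, these counts describe the gate and are no independent evidence of its name.

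Among the higher genes were surface receptors and Notch targets. Cr2 stood at 664 CPM in ALLO and 639 in SYN, against 257 and 248 in other B cells, with a ratio of 2.59 (2.43 to 2.76) in ALLO and 2.58 (2.41 to 2.75) in SYN. Cd1d1, which encodes CD1d, stood at 87.9 CPM in ALLO and 94.9 in SYN, against 25.3 and 29.5 in other B cells. Cd36, a scavenger receptor for lipids, stood at 64.8 CPM in ALLO and 71.9 in SYN, against 11.2 and 12 in other B cells, with ratios of 5.79 and 5.98. Dtx1 stood at 267 CPM in ALLO and 343 in SYN, against 63.1 and 70.8 in other B cells, and its ratio was 4.23 (3.8 to 4.71) in ALLO and 4.84 (4.38 to 5.35) in SYN. Asb2, a substrate-binding subunit of an E3 ubiquitin ligase, was rare in other B cells, with 84 and 57 UMIs in the 356 and 366 members and 12 and 17 in the 4637 and 4626 other B cells. Its ratio was 51.5 (28 to 104) in ALLO and 23.8 (13.7 to 43.7) in SYN. Plac8 stood at 1107 CPM in ALLO and 1154 in SYN, against 290.2 and 258 in other B cells. Not every gene of the list was higher: Tnfrsf13b, the receptor TACI, stood at 188 CPM in ALLO and 217 in SYN, against 219 and 240.1 in other B cells, and Ighm, the heavy chain of IgM, at 1252 CPM in ALLO and 1235 in SYN, against 1281 and 1237 in other B cells.

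Within the Notch pathway, Dtx1 and Hes5 were higher in members and the receptor was not. Of 17 measured genes of the pathway, 2 were higher in members in both libraries, Dtx1 and Hes5, and 2 were lower, Maml3, a coactivator, and Lfng, a glycosyltransferase that modifies Notch. Over all genes 8.02% were higher and 6.81% lower. The pathway's median log2 ratios were 0.04 in ALLO and -0.02 in SYN, so the pathway as a whole was not set apart from all genes. The target Hes5 stood at 16.1 and 19.8 CPM against 3.55 and 3.74 in other B cells. Hes1 stood at 60.8 and 44.8 CPM against 37.1 and 29.9, with a ratio of 1.64 in ALLO and just under 1.5 in SYN. Notch2 itself was equal within counting error in ALLO and lower in SYN, short of 1.5-fold, at 103 and 82.9 CPM against 100.4 and 117, with ratios of 1.03 (0.881 to 1.19) in ALLO and 0.709 (0.598 to 0.835) in SYN. Rbpj stood at 20.6 and 19.8 CPM against 17.7 and 16.2, and Adam10, the protease that cuts Notch, at 66.3 and 63.6 CPM against 64 and 68.2, neither of them 1.5-fold apart.

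Most of the homing receptors that differed were lower in members, and S1pr1 was higher. Of 22 measured homing receptors, integrins and their regulators, 2 were higher in both libraries and 7 lower, beside 8.02% and 6.81% of all genes. S1pr1, the receptor that draws cells toward blood, was higher at 153 and 172 CPM against 96 and 111, as was the integrin chain Itgb1 at 47.2 and 52.6 CPM against 20.3 and 23.9. Ccr7, the receptor for the T cell zone, was lower at 94.4 and 96.9 CPM against 239.9 and 224, and Itgb7, an integrin chain of gut homing, at 36.7 and 43.3 CPM against 103 and 110.0. Cxcr4 and S1pr4 were lower too, with ratios of 0.358 and 0.392 and of 0.455 and 0.377. Cxcr5, the receptor for the follicle, was not 1.5-fold apart in either library, at 110.5 and 149.6 CPM against 124 and 129. Of 11 complement and Fc receptor genes, Cr2 and Cd59a were higher and Cd55 and Fcgrt lower. Cd55, which shields cells from complement, stood at 190.3 and 194 CPM against 576 and 555, and Cd59a, another shield, at 9.04 and 3.65 CPM against 0.751 and 0.22, on 18 and 7 UMIs in members.

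Among transcription factors Klf2 and Bach2 were lower, and Zbtb32 and Bhlhe41 of the B-1 and memory list higher. Of 31 transcription factors of B cells, 5 were higher in both libraries and 7 lower, beside 8.02% and 6.81% of all genes. Klf2, which controls where B and T cells travel, stood at 624 CPM in ALLO and 595 in SYN, against 1363 and 1292 in other B cells, and Bach2, which restrains plasma cell differentiation, at 84.4 CPM in ALLO and 96.4 in SYN, against 286 and 310.1 in other B cells. Bcl6, Id3, Klf3, Mef2c and Ets1 were the other lower factors, with ratios of 0.433 and 0.398 for Bcl6, the germinal centre factor, and 0.469 and 0.363 for Id3. Zbtb32 was higher at 7.03 and 8.34 CPM against 1.02 and 1.54, Bhlhe41 at 18.1 and 15.1 CPM against 6.76 and 5.94 and Nfatc1 at 180.2 and 215 CPM against 112 and 134. Ebf1 and Pax5, which fix B cell identity, were not 1.5-fold apart, with ratios of 0.868 and 0.82 and 0.776 and 0.864. Ighd stood at 209.9 CPM in ALLO and 202 in SYN, against 570.0 and 576 in other B cells. Among cells with at least 3 UMIs of Ighm and Ighd together, 44.3% (38.7 to 50.0%) of ALLO and 43.1% (37.6 to 48.8%) of SYN members had no Ighd UMI, against 17.9% and 16.6% of other B cells. A switched class led the heavy chain UMIs in 2 members of each library, 0.562% in ALLO and 0.546% in SYN, against 0.518% and 0.432% of other B cells, so switched cells were rare in both.

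A few genes for folding and exporting antibody were higher in members. Of 19 such genes, 4 were higher in members in both libraries and 1 lower, beside 8.02% and 6.81% of all genes. Mzb1, an endoplasmic reticulum protein that helps IgM assembly, stood at 649 and 729.7 CPM against 302 and 309, Pdia4, a protein disulfide isomerase, at 383 and 407 CPM against 119 and 133, and Edem1, which sorts misfolded proteins, at 53.2 and 60.5 CPM against 31.3 and 31.2. Prdm1, the plasma cell factor Blimp-1, was also higher but rested on 12 UMIs in each library. Xbp1, the factor of the unfolded protein response, was at 49.7 and 70.4 CPM against 47.4 and 44.5 and passed 1.5-fold in SYN only. The plasma cell surface gene Sdc1 was the 1 lower gene. Tnfrsf17 (BCMA) had 0 UMIs in members, other B cells and T cells of both libraries, so it does not tell them apart. Derl3, of endoplasmic reticulum degradation, was higher at 17.1 and 16.2 CPM against 2.32 and 2.64.

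Tlr7, Tlr3 and Cd86 were higher in members, and the class II regulator Ciita lower. Of 21 innate sensors and adaptors, 4 were higher in both libraries and 1 lower, beside 8.02% and 6.81% of all genes. Tlr7, a sensor of RNA, stood at 27.1 and 24.5 CPM against 14.8 and 12.2, Tlr3 at 11.5 and 7.3 CPM against 1.71 and 1.25, and Ly96, the partner of Tlr4, at 20.1 and 17.2 CPM against 7.51 and 6.9. Cd180, a Toll-like B cell receptor, lay at the limit with ratios of 1.5 and 1.48, and Tlr9 stood at 33.6 and 42.7 CPM against 28.7 and 29.7. Of 20 genes of antigen presentation and costimulation, 3 were higher, Cd1d1, Cd80 and Cd86, and 3 were lower. Cd86, a ligand of CD28 on T cells, stood at 48.7 and 42.7 CPM against 25 and 24.3. The lower genes were Ciita, the master regulator of class II, at 118 and 122 CPM against 191 and 196, Icosl at 78.8 and 73 CPM against 132 and 132 and H2-Ob at 322 and 328 CPM against 629 and 644. The class II chains H2-Aa and H2-Ab1 had ratios of 0.701 and 0.698 and 0.748 and 0.776, lower by less than 1.5-fold.

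Early response genes that differed were mostly lower in members, with Myc and Nr4a2 as the exceptions. Of 24 immediate early and NF-kB genes, 2 were higher in both libraries and 9 lower, beside 8.02% and 6.81% of all genes. The medians of the list were -0.55 and -0.36. Junb stood at 995 CPM in ALLO and 929 in SYN, against 2292 and 2213 in other B cells. Jund, Ier2, Nfkbia, Dusp2 and Fos were lower with it, with ratios of 0.593 and 0.589 for Fos. Myc, a transcription factor of cell growth, stood at 248 CPM in ALLO and 219 in SYN, against 109 and 77.1 in other B cells, with a ratio of 2.27 (2.05 to 2.52) in ALLO and 2.85 (2.54 to 3.19) in SYN. Of 12 heat shock genes, 5 were higher in both, among them Hsp90ab1 at 2425 and 2353 CPM against 1596 and 1394 and the mitochondrial chaperone Hspd1 at 201 and 255 CPM against 96.7 and 109.5. The share of ribosomal protein UMIs, a coarse measure of RNA make-up, was also higher in members, with medians of 28.3% and 27.4% against 25.3% and 24.4%, and its part in these differences was not tested.

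**Figure D2:**
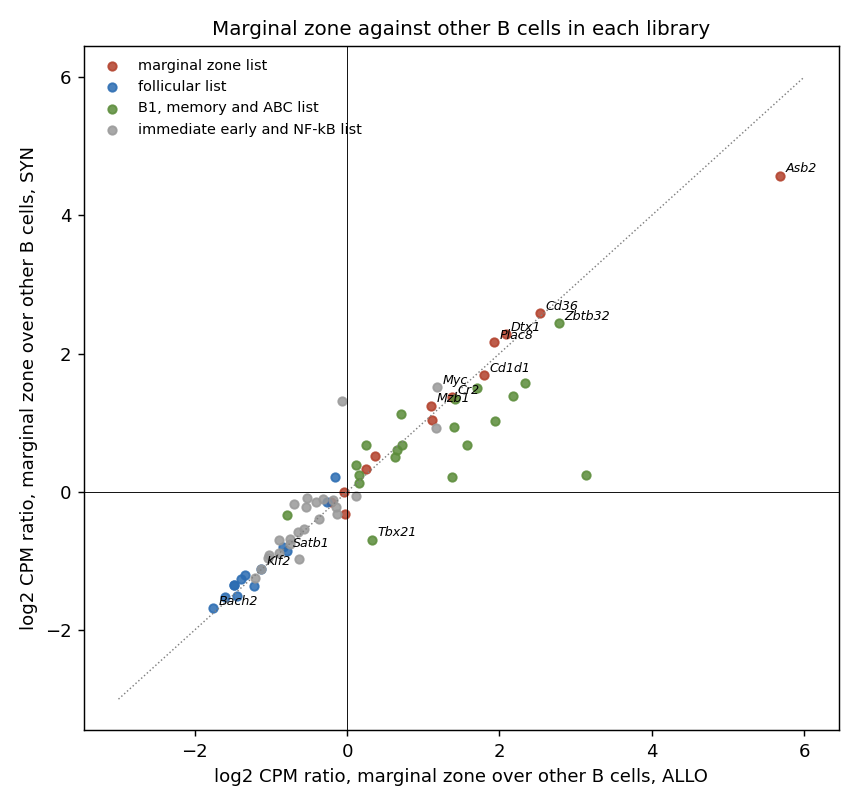
Log2 ratio of CPM in members over other B cells, ALLO on the x axis and SYN on the y axis, for genes of 4 lists that had a UMI in all 4 sums; ABC stands for age-associated B cells and the dotted line marks equal ratios. Marginal zone genes lie at the upper right with medians of 1.12 and 1.24, follicular genes at the lower left with -1.35 and -1.26.

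All genes of at least 50 UMIs were then ranked by how far the interval of their ratio lay from 1, in the library where it lay closer. The 15 highest were Tspan15, Asb2, Nebl, Ceacam2, Pla2g7, Ackr3, Ccnb2, Srgap3, Ffar2, Serpine2, Rgs10, Tbc1d9, Birc5, Ackr2 and Pclaf. Tspan15, a tetraspanin, had 29 and 25 UMIs in members and 0 and 3 in other B cells, which is at least 71.1-fold higher in ALLO against a floor of 3 counts over the group. Nebl, a gene of actin-binding nebulette, stood at 34.6 and 42.2 CPM against 1.57 and 2.05, with ratios of 22.1 (13.6 to 37.1) in ALLO and 20.6 (13.2 to 32.8) in SYN. Ackr3 and Ackr2, scavenging chemokine receptors, had ratios of 27.8 and 26.6 and 15.8 and 15.5. Ffar2, a receptor for short-chain fatty acids, stood at 35.6 and 24 CPM against 2.73 and 1.61. Rgs10, a brake on G protein signalling, stood at 91.9 and 65.1 CPM against 4.64 and 6.24 and Pla2g7, a secreted phospholipase, at 18.6 and 22.4 CPM against 0.546 and 0.954. Ccnb2, Birc5 and Pclaf are genes of dividing cells, and their place depends on the gate. With the gate read after thinning, the log2 ratio of Ccnb2 went from 4.18 to 0.71 in ALLO and from 4.38 to 0.27 in SYN. In ALLO, Birc5 then stood at -0.11 and Pclaf at -1.10, and in SYN at 1.38 and 1.84. Every gene of that gate was read on thinned UMIs, so cells whose Fcer2a or Cd3 UMIs were lost could enter it. It held 105 ALLO and 113 SYN cells, and other B cells were also chosen anew, by the absence of gate UMIs after thinning. Members that lost their gate UMIs could thus count as other B cells, and levels were still summed from unthinned UMIs. These values are therefore not the same comparison at equal depth. Among the 12 lowest were Rflnb, Bach2, Cd55, Hvcn1, Car2, Zfp318, Fchsd2, Vpreb3, Junb, Gadd45g and Lmo2. Hvcn1, a proton channel of B cells, stood at 121 and 146 CPM against 373 and 424, and Zfp318, which is needed for IgD expression, at 73.3 and 95.9 CPM against 206 and 253, lower beside Ighd. Vpreb3, a gene of young B cells, stood at 97.4 and 127 CPM against 252 and 335, and Rflnb at 6.53 and 16.7 CPM against 41.1 and 66.5.

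A small part of the members was dividing or carried markers of other cells. At least 3 UMIs over 9 genes of dividing cells were found in 15 of 356 ALLO members (4.21%, 2.38 to 6.85%) and 22 of 366 SYN members (6.01%, 3.80 to 8.96%), against 0.518% and 0.627% of other B cells. The dividing ALLO members had a median of 12168 UMIs and the SYN ones 3588. With every cell thinned to 1000 UMIs, Mki67 was seen in 0.562% (0.0681 to 2.01%) of ALLO members against 0.431% of other B cells, and in 3.28% (1.71 to 5.66%) of SYN members against 0.54%. At equal depth the higher share in members was thus seen for this gene in SYN and was not detectable in ALLO. Of 9 measured germinal centre and dividing genes, 4 were higher and 2 lower, beside 8.02% and 6.81% of all genes. The higher ones were Mki67, Top2a, Birc5 and Stmn1, and the germinal centre gene Bcl6 was among the lower. At least 3 UMIs of markers of T, NK, neutrophil, erythroid, platelet or myeloid cells were found in 13 ALLO and 17 SYN members (3.65% and 4.64%), against 1.29% and 3.26% of other B cells. This share was not read at equal depth, and members were deeper, at medians of 5173.5 and 4747.5 UMIs against 2957 and 2818.

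Members differed among themselves along Cr2. This split was chosen after the values had been seen, so it is a description. No Cr2 UMI was found in 78 of 356 ALLO members (21.9%) and 107 of 366 SYN members (29.2%), with median depths of 4844.5 and 3784 UMIs, against 5195 and 4911 in those with Cr2. Of 9199 genes with at least 20 UMIs over the 4 sums, 405 (4.4%) were at least 1.5-fold higher without Cr2 in both libraries and 709 (7.71%) lower. Of the 15 measured genes of the list of B-1, memory and age-associated B cell markers, 12 were higher without Cr2 and 0 lower, with median log2 ratios of 2.21 in ALLO and 1.48 in SYN, beside -0.02 and -0.09 over all genes. That list had also been higher in members as a whole than in other B cells, with medians of 1.05 and 0.68. There 11 of its 20 genes were higher, beside 8.02% of all genes.

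Markers of other cell types moved with the split. At least 3 of their UMIs were found in 4 of 78 ALLO and 10 of 107 SYN cells without Cr2 (5.13% and 9.35%), against 9 of 278 and 7 of 259 with it (3.24% and 2.70%), with overlapping intervals. Of 7 measured NK markers 3 were higher without Cr2 in both libraries, and of 2 neutrophil markers both, in ALLO on 1 and 2 UMIs. Over all genes 4.4% were higher. Cells without Cr2 held 87 of the 102 ALLO UMIs of Nkg7 and all 101 SYN UMIs of S100a8. Their part in the differences that follow was not tested.

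Genes higher without Cr2 included those of cytoskeletal and calcium-binding proteins. Vim, the filament protein vimentin, stood at 544 and 681 CPM without Cr2 against 95.7 and 99.9 with it, with a ratio of 5.69 (4.62 to 7.03) in ALLO and 6.82 (5.59 to 8.35) in SYN. S100a6, a calcium-binding protein, stood at 171 and 205 CPM without Cr2 against 24.6 and 15.6 with it, and Ahnak, a large scaffold protein, at 179.9 and 179.6 CPM without Cr2 against 34.9 and 19.1 with it. Vim was nevertheless not higher in members as a whole, at 196 and 253 CPM against 337 and 320.5 in other B cells. Anxa2, which binds membranes in the presence of calcium, stood at 96.7 and 41.4 CPM against 4.52 and 3.54, and Lgals1, the lectin galectin-1, at 189 and 107 CPM against 23.9 and 19.8. Actn1, an actin crosslinker, stood at 78.7 and 77 CPM against 2.59 and 7.79, and Fcer1g, the signalling chain shared by several Fc receptors and also a myeloid and NK cell gene, at 144 and 84.8 CPM against 9.7 and 9.21. Of all Fcer1g UMIs in members, 3 cells held 67.1% in ALLO and 82.1% in SYN. Transcription factors took part: Zbtb32 stood at 18 and 25.7 CPM against 3.88 and 2.12, Bhlhe41 at 49.5 and 27.6 CPM against 9.05 and 10.6 and Zbtb20 at 137 and 148 CPM against 86 and 80.7. Spn, the surface protein CD43 of B-1 cells, stood at 36 and 23.7 CPM against 3.23 and 7.08, and Cd80, a memory B cell marker, had 10 and 6 UMIs without Cr2 and 2 and 0 with it. Apoe, a lipid carrier, stood at 539.7 and 685 CPM against 156 and 159 and S100a10, the partner of Anxa2, at 490.2 and 432 CPM against 156 and 138. Cd5, the classical B-1a marker, is among the 12 on 6 and 5 UMIs without Cr2 and 6 and 5 with it, and its ratios of 3.48 (0.93 to 13) in ALLO and 2.79 (0.641 to 12.1) in SYN have intervals that include 1. Of 6 measured markers of transitional B cells, 4 were higher without Cr2, namely Cd93, Vpreb3, Myb and Sox4, beside 4.4% of all genes. Dividing genes were higher too, and 6 of 78 ALLO and 14 of 107 SYN cells without Cr2 held at least 3 UMIs of them, against 9 of 278 and 8 of 259 with Cr2.

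The Notch targets Dtx1 and Hes1 and the receptor genes Cd1d1 and Il9r stood with Cr2. Asb2 had 1 UMI in each library among cells without Cr2 and 83 and 56 among those with it. Dtx1 stood at 85.5 and 174 CPM without Cr2 against 319 and 404 with it, with a ratio of 0.268 (0.187 to 0.373) in ALLO and 0.43 (0.34 to 0.539) in SYN. Hes1 stood at 22.5 and 13.8 CPM without Cr2 against 71.8 and 56 with it. Of 16 measured Notch genes 0 were higher without Cr2 in both libraries and 3 lower, Dtx1, Hes1 and Notch2. Over all genes 4.4% were higher and 7.71% lower. Hes5 did not follow them in ALLO, at 22.5 and 3.95 CPM against 14.2 and 25.5, with ratios of 1.58 (0.668 to 3.48) in ALLO and 0.155 (0.0181 to 0.601) in SYN. Lfng differed in direction too, with ratios of 3.48 (1.14 to 10.6) and 0.429 (0.109 to 1.24). Cd1d1 stood at 33.7 and 35.5 CPM against 103 and 116, and the cytokine receptor gene Il9r at 11.2 and 9.87 CPM against 63.3 and 55.2. Ffar2, Sema7a, Tmem108, Rasgef1b, Pik3r4, Dph5 and Myc were likewise lower without Cr2, with 124 and 111 CPM against 283 and 259 for Myc. Notch2 stood at 56.2 and 59.2 CPM against 116 and 91.4. The gate genes themselves divided: Myof stood at 45 and 37.5 CPM against 129 and 119.7 and S1pr3 at 13.5 and 27.6 CPM against 63.3 and 81.5, whereas Cd9, at 110.2 and 116 CPM against 83.4 and 115, and Fcrl5, at 157 and 219 CPM against 196 and 193, were alike within 1.5-fold. Of 12 measured marginal zone genes besides Cr2, 0 were higher without Cr2 in both libraries and 4 lower, Cd1d1, Dtx1, Asb2 and Cnr2, with median log2 ratios of -0.34 and -0.03. Plac8 stood at 1396 and 1583 CPM against 1024 and 1001. Klf2, Ccr7, Itgb7 and Cxcr4 of the 13 measured follicular genes were higher without Cr2, with 890.5 and 993 CPM against 547 and 453 for Klf2, a level still below the 1363 and 1292 CPM of other B cells.

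**Figure D3:**
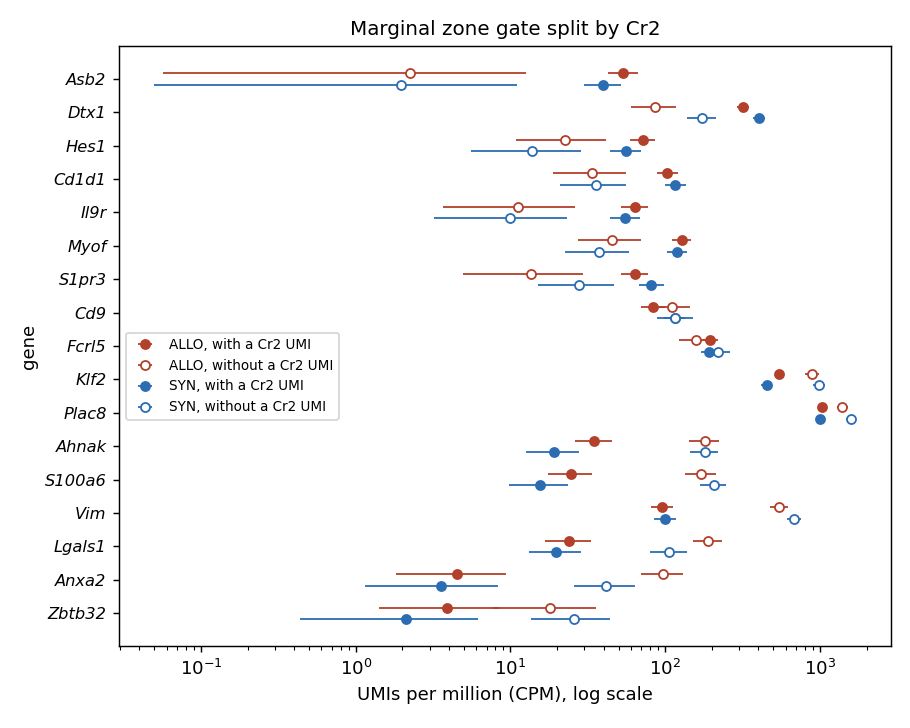
CPM (log scale) of 17 genes in members with a Cr2 UMI (filled) and without (open) in ALLO (red) and SYN (blue), with exact 95% Poisson intervals. Asb2, Dtx1, Hes1, Cd1d1, Il9r, Myof and S1pr3 are higher with Cr2, Ahnak, S100a6, Vim, Lgals1, Anxa2 and Zbtb32 higher without, and Cd9 and Fcrl5 alike within 1.5-fold.

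Shares of heavy chain segments were compared across the same split, with no test of their difference. A cell was assigned the segment with 3 or more UMIs that had no less than 2 times those of the next, which was possible for 287 of 356 ALLO and 318 of 366 SYN members, over 69 and 74 segments, with at most 15 and 21 cells for any of them. Ighv11-2 and Ighv12-3 are known from B-1 cell antibodies to phosphatidylcholine. Ighv11-2 was assigned to 4 of 63 ALLO (6.35%, 1.76 to 15.5%) and 7 of 87 SYN cells (8.05%, 3.30 to 15.9%) without Cr2. With Cr2 it was assigned to 1 of 224 ALLO cells (0.0113 to 2.46%), an interval that overlaps the one without Cr2, and to 0 of 231 SYN cells (0 to 1.58%), where 3 counts would be 1.3%, and in other B cells to 0.114% and 0.144%. Ighv12-3 was assigned to 6 of 63 ALLO cells without Cr2 (9.52%, 3.58 to 19.6%) but to 0 of 87 in SYN (0 to 4.15%), where 3 counts would be 3.45%. With Cr2 it was assigned to 2 of 224 ALLO (0.108 to 3.19%) and 1 of 231 SYN cells. Ighv1-53 was assigned to 5.80% (3.13 to 9.72%) of 224 ALLO cells with Cr2 and 1 of 63 without, intervals that overlap, and to 3.46% of 231 SYN cells with Cr2, against 1.83% and 2.10% of other B cells. Segments of one family are near copies, so reads may be split between them, and these segments were chosen after their values had been seen. The members without Cr2 had passed the gate, yet genes of the B-1 and memory list were higher in them and Dtx1, Asb2 and Cd1d1 lower, so they go against the label in part. They are called here only by their lack of Cr2 UMIs, and at these depths a cell with no Cr2 UMI may still hold Cr2 transcripts.

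Between ALLO and SYN, the genes that mark the members had near-equal levels. Of 7278 genes with at least 50 UMIs over both sums, 177 (2.43%) were at least 1.5-fold higher in ALLO and 352 (4.84%) at least 1.5-fold lower, and 120 and 240 of these had counting intervals clear of 1. In other B cells, summed to 14649594 and 13630375 UMIs, 158 and 236 of 10355 genes lay as far apart. At 20 UMIs, the minimum used for lists, 397 of 9200 genes (4.32%) were higher in members of ALLO and 720 (7.83%) lower, with a median log2 ratio of -0.06. Against that, 0 of 13 marginal zone genes and 0 of 13 follicular genes were 1.5-fold apart in either direction, with medians of -0.10 and -0.04. Cr2 stood at 664 CPM in ALLO and 639 in SYN, with a ratio of 1.04 (0.961 to 1.12). Dtx1 was lower in ALLO, at 267 CPM in ALLO and 343 in SYN, with a ratio of 0.779 (0.693 to 0.874) that was short of 1.5-fold, beside 0.892 (0.814 to 0.977) in other B cells. Asb2 stood at 42.2 CPM in ALLO and 29.7 in SYN, Hes1 at 60.8 CPM in ALLO and 44.8 in SYN and Notch2 at 103 CPM in ALLO and 82.9 in SYN, with ratios of 1.42 (1.0 to 2.02), 1.36 (1.02 to 1.81) and 1.24 (1.0 to 1.54). Of 16 Notch genes 0 were higher and 3 lower, Lfng, Notch1 and Maml3, each under 50 UMIs over both libraries.

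Several heat shock and interferon genes were higher in ALLO, in members and in other B cells. Hspa1a, the inducible HSP70 chaperone, stood at 34.1 CPM in ALLO and 4.17 in SYN, with a ratio of 8.19 (3.93 to 19.7), beside 14 (9.91 to 20.3) in other B cells. Its near-identical neighbour Hspa1b, between which reads may be split, stood at 45.7 CPM in ALLO and 7.3 in SYN, with a ratio of 6.26 beside 10.4. Of 11 heat shock genes 4 were higher and 0 lower, beside 4.32% and 7.83% of all genes. The others of the 4 were Dnajb1, at 1.69 beside 1.53, and Hsph1, at 1.55 beside 1.68. The list's median log2 ratio was 0.04 in members and 0.20 in other B cells, beside -0.06 over all genes in both. In ALLO 30 members held a Hspa1a UMI, and in SYN 1 member held 13 of the 14 Hspa1b UMIs. Of 18 interferon response genes 3 were higher and 0 lower, with a median log2 ratio of 0.29 in members and 0.37 in other B cells. Rtp4 stood at 18.6 CPM in ALLO and 7.3 in SYN, with a ratio of 2.55 (1.34 to 5.1), Oas1a, a sensor of viral RNA, at 2.15 and Oasl2 at 2.06 on 22 UMIs in all.

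Single genes outside these lists stood apart too, some of them also in other B cells. Cdk5rap1 stood at 32.6 CPM in ALLO and 4.17 in SYN, with a ratio of 7.83 (3.75 to 18.9) beside 6.78 in other B cells. Irf4, a factor of activated B and plasma cells, stood at 138 CPM in ALLO and 92.8 in SYN, with a ratio of 1.48 (1.22 to 1.8) beside 1.46, both just short of 1.5-fold. Rgs1, a brake on chemokine receptors, stood at 31.1 CPM in ALLO and 13 in SYN, with a ratio of 2.39 (1.48 to 3.97) beside 1.5, and the orphan nuclear receptor gene Nr4a2 at 2.11 beside 1.78. The Y-linked helicase gene Ddx3y stood at 67.8 CPM in ALLO and 29.2 in SYN, with a ratio of 2.32 (1.69 to 3.23) beside 1.29. AY036118 stood at 2709 CPM in ALLO and 1685 in SYN, with 1.61 beside 1.14. Lower in ALLO was Cd274 (PD-L1), a ligand that restrains T cells, at 36.7 CPM in ALLO and 63.6 in SYN, with a ratio of 0.576 (0.425 to 0.777), beside 0.979 (0.842 to 1.14) in other B cells. Hsp90b1, the endoplasmic reticulum chaperone gp96, stood at 315 CPM in ALLO and 429 in SYN, with a ratio of 0.734 (0.66 to 0.815) beside 0.943, and Xbp1 at 0.706 beside 1.07, both short of 1.5-fold. Ighg2b, a switched heavy chain, had 35 UMIs in ALLO and 11 in SYN, with a ratio of 3.07 (1.52 to 6.69) beside 0.725 in other B cells.

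In the ranking of ALLO over SYN, the first 3 genes on either side drew most of their UMIs from a few cells. Ccl5, a chemokine of NK and T cells, stood at 175 CPM in ALLO and 16.7 in SYN, Nkg7, a granule gene of killer cells, at 51.2 CPM in ALLO and 6.25 in SYN, and the granzyme gene Gzma at 129.5 CPM in ALLO and 20.8 in SYN. Their ratios were 10.5 (7.31 to 15.6), 8.19 (4.49 to 16.4) and 6.21 (4.44 to 8.9), against 0.34, 0.504 and 0.53 in other B cells. The 3 ALLO members with the most UMIs of each held 75.6%, 85.3% and 88.0% of its UMIs. All 7 of 7 measured NK cell markers were higher in ALLO, beside 4.32% of all genes. Their median log2 ratio was 1.95, against -1.66 in other B cells. Any UMI of the 8 listed markers was held by 25 ALLO and 29 SYN members. These UMIs were 475 and 94 in all and at most 221 and 39 in 1 cell. Without the cells that carried at least 3 UMIs of other cell types, an alternative chosen with the data in view, the log2 ratios of Ccl5, Nkg7 and Gzma went from 3.39, 3.03 and 2.64 to 0.21, -0.057 and 0.94. Nkg7 and Gzma were among the markers by which those cells were removed, so their later values are not independent of the removal. Ccl5 was not among those markers. At the other end, 1 SYN member held 101 of 101 UMIs of S100a8, 109 of 110 of S100a9 and 86 of 95 of Lyz2, genes of neutrophils and macrophages, for which ALLO members had 2, 4 and 4 UMIs. Of the neutrophil markers, Mpo, Elane and Ly6g had 0 UMIs in members of both libraries. Of 14 myeloid markers 8 had UMIs in each library, at 370.0 and 431 CPM in sum, and Cd14, C1qc, Vcam1, Marco and Siglec1 had 0 in both. The platelet markers had 1 UMI in each library.

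Genes of dividing cells did not go one way. Ube2c, a ubiquitin enzyme of mitosis, stood at 24.6 CPM in ALLO and 77.1 in SYN, with a ratio of 0.319 (0.226 to 0.443) beside 1.35 in other B cells, and the proliferation marker Mki67 at 34.6 CPM in ALLO and 66.2 in SYN, with a ratio of 0.523 (0.385 to 0.707) beside 0.56. Rrm2, which makes the building blocks of DNA, stood at 29.1 CPM in ALLO and 13 in SYN, with a ratio of 2.23 (1.38 to 3.73) beside 0.355. The histone genes Hist1h1a, Hist1h1d, Hist1h2ap and Hist1h2ae, made while DNA is copied, were higher in ALLO, with ratios of 3.42, 2.48, 2.78 and 1.86; copies of these genes are alike and reads may be split. Of the Ube2c UMIs, 3 SYN cells held 81.8%, and of the Rrm2 UMIs 3 ALLO cells held 56.9%. Without dividing cells, also chosen with the data in view, the log2 ratios of Hist1h2ap and Hist1h2ae turned to -0.30 and -0.55. Those of Mki67 and Kpna2, an importin, turned to 2.77 and 0.0123. Mki67 was among the genes by which the dividing cells were removed, and each cell kept held fewer than 3 UMIs over those genes. The later value of Mki67 is thus not independent of the removal, and no direction is read from it. With the gate read after thinning, the log2 ratio of Rrm2 turned to -2.34 and that of Hist1h1a to -0.30. Without dividing cells, Hist1h1a and Hist1h1d kept their direction, at 0.38 and 0.70. The cause of these reversals was not tested.

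Snx6, Usp10 and Pprc1 were among the 15 lowest in ALLO. Snx6, a sorting nexin, stood at 32.1 CPM in ALLO and 65.7 in SYN, with a ratio of 0.489 (0.356 to 0.666) beside 0.737 in other B cells. Usp10, a deubiquitinase, stood at 18.6 CPM in ALLO and 38.6 in SYN and Pprc1, a coactivator of mitochondrial genes, at 14.1 CPM in ALLO and 31.3 in SYN, with ratios of 0.482 (0.315 to 0.724) and 0.45 (0.276 to 0.715) beside 0.954 and 0.916. Eif2b5, Mogs, Ftsj1, Ttc27, Nrgn and Racgap1 were lower as well, with ratios from 0.361 to 0.527, and Nrgn drew 73.6% of its SYN UMIs from 3 cells. The genes whose ALLO over SYN ratio differed most from that of other B cells were Ccl5, Nkg7, Gzma, Rrm2, Hist1h1a and Fcer1g on the higher side and Ube2c, Cenpf, Ly6k, Kpna2, Dhx57 and Ttc27 on the lower side; these differences were not tested. Dhx57, a helicase, stood at 14.1 CPM in ALLO and 28.7 in SYN, with a ratio of 0.49 (0.30 to 0.787) beside 1.07.

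**Figure D4:**
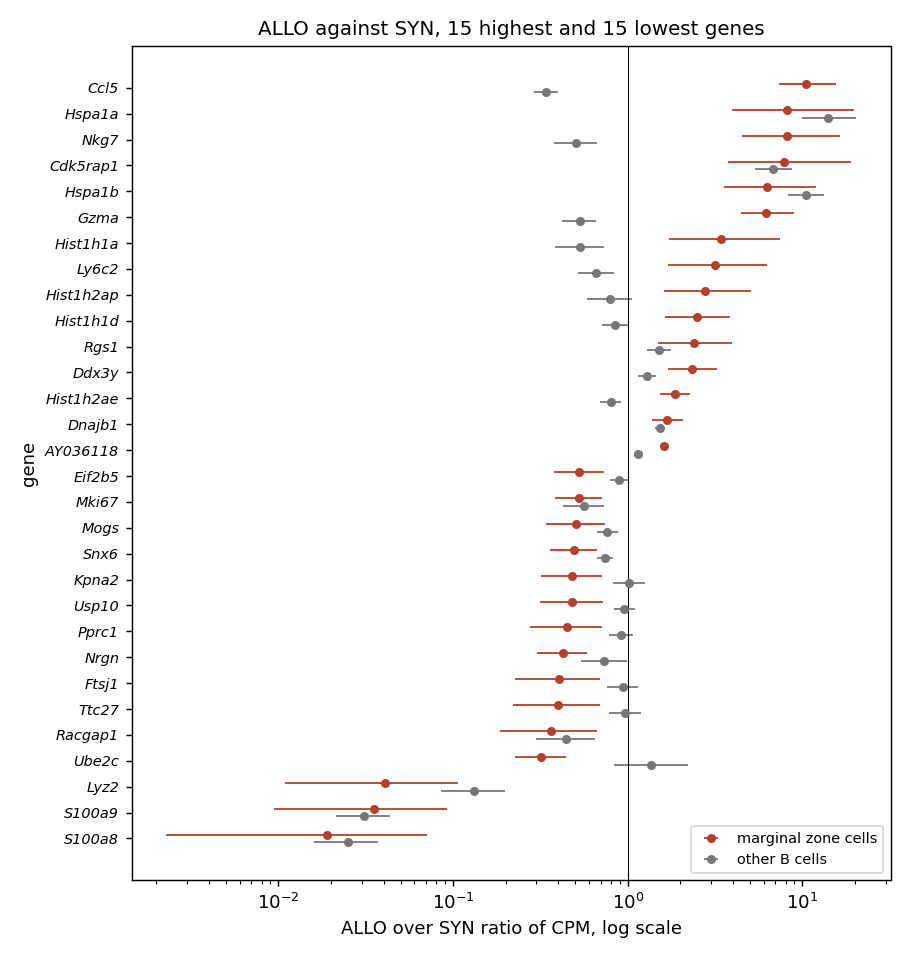
ALLO over SYN ratio of CPM (log scale) for the 15 highest and 15 lowest genes in members (red), with the same ratio in other B cells (grey), and exact 95% counting intervals. Heat shock genes and Cdk5rap1 lie on the same side in both kinds of B cells, while Ccl5, Nkg7 and Gzma, at 10.5, 8.19 and 6.21 in members, lie below 1 in other B cells.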

How the data were processed

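Unique molecular identifier (UMI) counts per gene and barcode were used as the authors deposited them, whole-number counts in 1 matrix for ALLO and 1 for SYN, made by the 10x 5′ v2 protocol per the labels' protocols and with Cell Ranger 6.0.2 on mm10 per the submitters' processing notes, with settings that the sources used here do not state. The libraries held 39476214 and 45435231 UMIs. Gated cells were summed per library and scaled to 1000000 UMIs (CPM) with Python 3.11.15, numpy 2.4.6, scipy 1.17.1 and pandas 2.3.3. Levels have exact Poisson, ratios exact conditional and shares Clopper-Pearson 95% intervals. With 1 library per group nothing was tested, and "higher" or "lower" in a count of genes means at least 1.5-fold. Named genes were all list members of at least 20 UMIs and, at 50 UMIs, the 15 highest and 12 lowest against other B cells, the 15 highest and lowest between ALLO and SYN and the 6 with the largest difference from other B cells in each direction, leaving out gate, segment, mitochondrial, ribosomal and predicted genes. A few genes that these rules would name are not reported here. The members and gene lists were chosen with earlier results of these data known. Doublets were marked with Scrublet in scanpy 1.11.5 and kept, and leaving them out is an alternative. Ratios and their intervals were tested on simulated Poisson sums of each gene. Such sums lack the uneven spread of UMIs over cells seen for some genes, so the intervals of those genes were not tested. Promoter sequences are from RefSeq on GRCm38.p6, the build of mm10.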

Additional observations from a re-analysis of the deposited data

Results flagged for a closer look

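The ratio of ALLO over SYN lay on opposite sides of 1 in members and in other B cells, with counting intervals clear of 1 in both, for 10 of the named genes, and these differences were not tested. It was 10.5 in members for Ccl5, 8.19 for Nkg7 and 6.21 for Gzma, genes of killer lymphocytes, against 0.34, 0.504 and 0.53 in other B cells. It was 3.42 for Hist1h1a, 2.23 for Rrm2, 1.86 for Hist1h2ae and 1.45 for Pclaf, genes of DNA copying, against 0.529, 0.355, 0.80 and 0.53. For Cenpf, a kinetochore gene, it was 0.473 against 2.01. For the Ly6 family it was 3.17 against 0.656 for Ly6c2, which has a near copy that may share its reads, and 0.548 against 1.76 for Ly6k. Of the 46 Ly6c2 UMIs in ALLO members, 3 cells held 69.6%.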

How the results depend on the processing

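No paired analysis was possible because each group was 1 library, and no replicate could be left out. Counts of genes followed the limits: between ALLO and SYN, 102 higher and 195 lower with the gate read after thinning, 397 and 720 from 20 UMIs, 2160 and 2515 over all genes with a UMI and 38 and 66 at 2-fold. Against other B cells, 1368 were higher and 2044 lower over all genes and 343 and 227 at 2-fold. Against other B cells without Fcer2a, 458 were higher and 437 lower. The ratio of member shares was 1.11 over kept barcodes. The following log2 values reversed, and the cause was not tested. Between ALLO and SYN after thinning, they were -1.85 for Ccl5, -2.21 for Nkg7, -4.25 for Gzma, -0.30 for Hist1h1a, -1.26 for Hist1h1d, -1.62 for Hist1h2ap, -2.63 for Hist1h2ae, -2.34 for Rrm2, -0.21 for Ly6c2, 0.48 for Ly6k, 2.12 for Nrgn and 0.53 for Mogs. Against other B cells after thinning, they were -0.11 for Birc5 and -1.10 for Pclaf in ALLO, with medians of -0.23 for germinal centre and dividing genes in ALLO and -0.0187 for plasma cell genes in SYN. Those other B cells were chosen anew after thinning and could include members that had lost their gate UMIs. The thinned gate could in turn take in cells whose Fcer2a or Cd3 UMIs were lost. S100a9 turned to 1.46 at a gate sum of 3, 0.98 with 2 different gate genes, 1.95 without marked doublets, 0.87 with a Cr2 UMI required and 1.53 without cells carrying other cell types' markers. The median of heavy chain constant genes in ALLO was -0.10 at a gate sum of 3 and -0.29 with 2 different gate genes. In the main setting it was 0.66 where missing counts were set to a floor or their genes left out. Over all 7 measured genes the main value was -0.03, so no reversal is read from this list. With Cr2 required, Gzma turned to -0.0356, Lyz2 to 0.28, the NK median between ALLO and SYN to -0.0323 and the myeloid median in SYN to -0.18. Without cells of other markers, Nkg7 turned to -0.057 and the erythroid medians to 0.46 in ALLO and 0.28 in SYN, the latter 0.14 at 2000 UMIs. Without dividing cells, Hist1h2ap turned to -0.30, Hist1h2ae to -0.55, Mki67 to 2.77, Kpna2 to 0.0123 and the median of germinal centre and dividing genes in ALLO to -0.41. Both of these last alternatives were chosen after the data were seen. Their rules counted UMIs of Nkg7, S100a9, the erythroid markers, Mki67, Top2a, Birc5 and Stmn1. Values of these genes and of lists that hold them are thus not independent of the removal. Other scalings reversed none of the values. Small sums limit all of these, since a gene of 20 UMIs has a wide counting interval.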
